A study of Mus musculus with 2 samples.

Results

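The 10 genes described here encode factors of the AP-1 family and other early response proteins: Fos, Fosb, Fosl2, Jun, Junb, Jund, Atf3, Egr1, Ier2 and Ier3. They were taken by symbol, with earlier results of these data known, and all 10 were found once among the 31053 genes counted. Their RNA was measured by single-cell sequencing in bone marrow derived macrophage cultures of wild-type 129Sv mice. In both groups marrow cells were grown with 50 ng/ml M-CSF, the growth factor that drives marrow precursors towards macrophages, and 10% serum. On day 7 one culture received 1 µg/ml of a truncated Tamm-Horsfall protein (THP) that does not polymerize, and the other received 5% dextrose as vehicle, each for 18 h. Tamm-Horsfall protein, also called uromodulin, is made by kidney tubule cells. Both cultures were detached with TrypLE for 10 min at room temperature and depleted of dead cells before droplet capture. There was 1 library per group, and the number of mice or dishes behind each is unknown here. Treatment and library therefore cannot be told apart, no p-value was computed, and every interval below is a 95% interval that covers counting error only.

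AP-1 is a set of dimers of basic leucine zipper proteins, in which a Fos or Atf partner pairs with a Jun partner, or Jun proteins pair with each other, on short sites in promoters and enhancers. Many of these genes are immediate early genes: kinases of the ERK, JNK and p38 pathways switch on their transcription within minutes of a stimulus, without new protein synthesis, and their RNAs decay fast. In macrophages AP-1 is known for its part in M-CSF signalling, in inflammatory gene expression and in osteoclast formation. The same genes are also known to be induced when cells are detached and handled.

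The proximal promoters of Ier3 and Fosb are shown because these 2 genes passed the 2-fold limit between the libraries, and those of Junb and Fos because Junb came next in size among the genes higher with THP and Fos was level. Each runs 5′ to 3′ from base -250 to base -31 of the RefSeq start site, on build GRCm38.p6. Capitals mark the core of the cAMP response element (TGACG) and kappa B sites. Ier3 lies at chr17:35821463-35821682, plus strand; Junb at chr8:84978779-84978998, minus strand; Fosb at chr7:19310076-19310295, minus strand; and Fos at chr12:85473640-85473859, plus strand.
Ier3: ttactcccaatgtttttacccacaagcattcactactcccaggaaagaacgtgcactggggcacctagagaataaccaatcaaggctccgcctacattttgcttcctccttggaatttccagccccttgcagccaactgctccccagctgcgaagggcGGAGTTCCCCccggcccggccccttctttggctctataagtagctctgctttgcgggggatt
Junb: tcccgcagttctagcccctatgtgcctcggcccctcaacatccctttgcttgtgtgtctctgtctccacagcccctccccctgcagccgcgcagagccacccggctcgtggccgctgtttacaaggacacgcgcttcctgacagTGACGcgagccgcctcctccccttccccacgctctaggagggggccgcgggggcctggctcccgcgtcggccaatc
Fosb: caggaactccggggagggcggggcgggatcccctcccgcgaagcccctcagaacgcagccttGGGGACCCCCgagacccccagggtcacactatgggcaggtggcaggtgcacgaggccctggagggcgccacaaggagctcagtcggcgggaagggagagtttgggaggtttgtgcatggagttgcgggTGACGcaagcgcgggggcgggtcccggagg
Fos: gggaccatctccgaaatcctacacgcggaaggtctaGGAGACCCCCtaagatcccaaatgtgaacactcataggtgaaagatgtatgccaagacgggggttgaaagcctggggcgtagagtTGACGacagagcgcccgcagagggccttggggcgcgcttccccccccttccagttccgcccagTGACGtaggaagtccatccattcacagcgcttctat

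RefSeq promoter entries were matched by symbol for 8 of the 10 genes; Egr1 and Ier2 were not. Both strands of the 250 bases before the start were searched for 5 motifs. The kappa B site, which NF-kappa B binds, was present in 4 of the 8 (Ier3, Fos, Fosb and Fosl2, the last with a pair of overlapping matches), against 3.9% of 32851 promoters. The core TGACG, which is part of the full cAMP response element, was present in Fos, Fosb, Junb and Atf3, against 17.8% of promoters. The full element TGACGTCA (1.55% of promoters), the AP-1 site TGANTCA (6.75%) and the CArG box bound by serum response factor (1.47%) were found in 0 of the 8 windows. In the sequences above, the kappa B match of Ier3 spans bases -92 to -83, that of Fosb -188 to -179 and that of Fos -214 to -205. A match describes the letters and is not evidence of binding.

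The THP library held 12123 cells after filtering and the vehicle library 10978, with medians of 16113 and 17223 UMIs (unique molecular identifiers, one per captured RNA molecule) per cell. The 2 libraries shared 38 barcodes among these cells. Levels are UMIs summed over cells and scaled to counts per 1000000 UMIs (CPM), and the log2 ratio compares CPM + 1 of the THP library with that of the vehicle library. A gene was called when this ratio passed 2-fold and either library reached 10 CPM. The median log2 ratio of the 8012 genes at that level was -0.18, and their central 95% ran from -1.04 to 0.56. Only 30.2% of THP cells and 20.9% of vehicle cells carried at least 3 of 6 macrophage markers as their leading type. Monocyte, neutrophil, progenitor, MHC class II high and osteoclast-like cells were present in both, so the label of a macrophage culture covers a mixture.

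**Figure D1:**
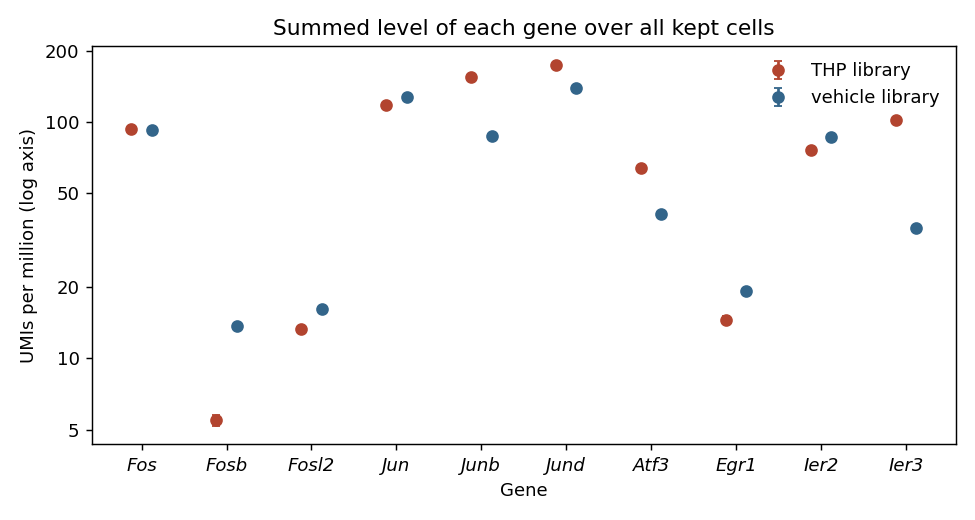
Level of each of the 10 genes in CPM (log axis) over all filtered cells of the THP library (red) and the vehicle library (blue), with exact Poisson 95% intervals, most of them smaller than the points. Ier3 at 102 against 35.5 and Fosb at 5.47 against 13.6 stand farthest apart, while the points of Fos lie at the same height. Levels are not scaled for gene length and are to be compared between libraries only.

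Over all cells, all 10 genes passed the filter on low values. Ier3 was the only 1 of the 10 called higher with THP, against 0.911% of all genes, and Fosb the only 1 called lower, against 2.97%. Log2 ratios were positive for 5 of the genes and negative for 5, with a median of -0.05. With a limit of 1.5-fold, 3 were higher (Ier3, Junb and Atf3), against 2.33% of genes, and 1 was lower, against 17.3%. With TMM factors, a scaling that raised the median log2 ratio of all genes from -0.18 to 0.11, 8 were positive and 2 negative.

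The Fos family genes encode partners that cannot pair with themselves on DNA and need a Jun protein. Fos (ENSMUSG00000021250, chr12:85473890-85477273 of GRCm38, 4 exons) is the founding immediate early member. Its level was 92.9 CPM (91.7 to 94.2) with THP and 92.8 CPM (91.5 to 94.1) with vehicle, so the libraries were level. That result depended on how cells were weighted: with each cell given equal weight the log2 ratio was -0.47. Fosb (ENSMUSG00000003545, chr7:19302696-19310051), a close relative of Fos, was at 5.47 CPM (5.17 to 5.79) with THP and 13.6 CPM (13.1 to 14.2) with vehicle. This was 2.49-fold lower (2.33 to 2.67), from 1230 and 2834 UMIs, with a log2 ratio of -1.18. Fosl2 (ENSMUSG00000029135, chr5:32135801-32157842), also called Fra-2, differed little, with 13.3 CPM against 16.2 CPM and a log2 ratio of -0.27.

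Of the Jun family, Jun (ENSMUSG00000052684, chr4:95049034-95052222), the main partner of Fos, was at 118 CPM (116 to 119) with THP and 127 CPM (126 to 129) with vehicle. Its log2 ratio of -0.11 lay near the median of all genes. Junb (ENSMUSG00000052837, chr8:84974484-84978718), which can replace Jun in the dimer and binds DNA less strongly, was at 156 CPM (154 to 157) with THP and 87.5 CPM (86.2 to 88.8) with vehicle. The ratio was 1.78-fold (1.75 to 1.81; log2 0.82), below the 2-fold limit but higher than in 98.7% of genes. Jund (ENSMUSG00000071076, chr8:70698949-70700616), the member expressed in most resting cells, was at 174 CPM with THP and 139 CPM with vehicle, a log2 ratio of 0.32. The 3 Jun genes each lie in 1 exon.

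Atf3 (ENSMUSG00000026628, chr1:191170296-191218039), a stress-induced zipper factor that often represses inflammatory genes in macrophages, was at 63.6 CPM (62.5 to 64.6) with THP and 40.8 CPM (39.9 to 41.7) with vehicle, 1.56-fold (1.52 to 1.60; log2 0.63). Egr1 (ENSMUSG00000038418, chr18:34859823-34864984), a zinc finger factor induced with Fos by growth factors, was at 14.6 CPM with THP and 19.2 CPM with vehicle, a log2 ratio of -0.37. Ier2 (ENSMUSG00000053560, chr8:84661331-84662852), an early response nuclear protein, was at 76.2 CPM and 86.6 CPM, a log2 ratio of -0.18 that equals the median of all genes. Ier3 (ENSMUSG00000003541, chr17:35821684-35822923), also called IEX-1, which limits cell death and is a known target of NF-kappa B, was at 102 CPM (101 to 103) with THP and 35.5 CPM (34.7 to 36.3) with vehicle. This was 2.87-fold higher (2.80 to 2.95), from 22932 and 7371 UMIs, and its ratio exceeded those of 99.5% of genes.

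Scaling decided which of the smaller ratios counted. With TMM factors Ier3 (1.78) and Junb (1.11) were called higher, against 1.73% of genes, and Fosb at -0.92 was not called, with 0 members lower against 0.867%. Across all genes the fitted ratio was lower for longer transcripts, and the longest transcripts of the 10 genes had a median of 2046 bases against 3388 for all tested genes. After correction for length Ier3 (1.38) was called higher, against 1.4% of genes, and Fosb at -0.93 was not, with 0 members lower against 0.886%. Of the alternatives, 10 could move a ratio, and in these the sign was kept by Ier3, Junb, Jund and Atf3 on the higher side and by Fosb and Egr1 on the lower side. TMM and RLE factors move all genes alike; in the other 8 the sign changed 5 times for Fos, whose ratio lies near 0, and 1 time each for Fosl2, Jun and Ier2.

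Cells were then assigned to types by markers that do not include the 10 genes, and 7 types held at least 100 cells in each library. The macrophage gate held 3666 THP and 2295 vehicle cells and the monocyte gate 942 and 1145. The myeloid progenitor gate held 1440 and 1789, the immature neutrophil gate 1031 and 1324, and the mature neutrophil gate 205 and 406. The MHC class II high gate held 1011 and 1114 cells and the osteoclast-like gate 208 and 164. Cells of the neutrophil gates were shallow, with medians of 2603 and 2076 UMIs in mature neutrophils, and 66.8% and 65.5% of these cells had only the 3 markers needed.

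**Figure D2:**
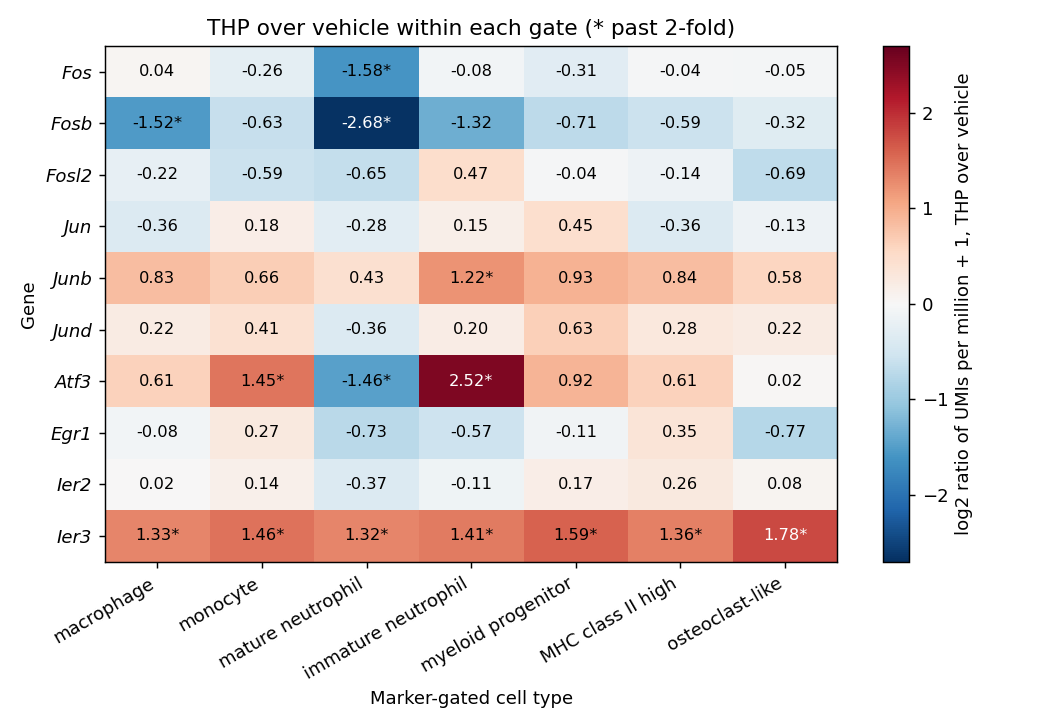
Log2 ratio of CPM + 1, THP over vehicle, for each gene (vertical axis) within each of the 7 marker-gated cell types (horizontal axis); red is higher with THP, blue lower, and an asterisk marks values past 2-fold at 10 CPM or more. Ier3 is past 2-fold in every column (1.32 to 1.78), Junb is positive and Fosb negative in every column, and Atf3 runs from -1.46 to 2.52.

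Ier3 was called higher with THP in all 7 gates. In the macrophage gate it was at 121 CPM (119 to 124) with THP and 47.8 CPM (46.1 to 49.5) with vehicle, and in the monocyte gate at 88.0 against 31.4 CPM. Levels in mature neutrophils were 286 CPM (249 to 327) and 114 CPM (95.1 to 135), and in immature neutrophils 85.7 and 31.7 CPM. In progenitors Ier3 was at 52.2 against 16.6 CPM, in MHC class II high cells at 73.2 against 27.8 CPM, and in osteoclast-like cells at 50.8 against 14.1 CPM. Log2 ratios ran from 1.32 in mature neutrophils to 1.78 in osteoclast-like cells, and the THP and vehicle intervals did not overlap in any gate. The library difference of Ier3 was thus present within each of the 7 gates. It was 1.37 when both libraries were given the same mix of gates. The gates do not hold cells with fewer than 3 markers of any type (21.2% of THP and 15.0% of vehicle cells). Cells tied between types (7.15% and 8.91%) are also outside them.

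Junb had a positive log2 ratio in all 7 gates, from 0.43 in mature neutrophils to 1.22 in immature neutrophils, where it was called higher (101 against 42.6 CPM). In macrophages it was at 157 CPM (154 to 159) with THP and 87.8 CPM (85.5 to 90.2) with vehicle. Jund was positive in 6 gates and negative in mature neutrophils (-0.36), with the largest value, 0.63, in progenitors. With cells that also carried 3 markers of another type left out, the progenitor value of Jund was -0.07, so the direction there is not given. That rule left only 351 of 1440 THP and 309 of 1789 vehicle progenitors.

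Fosb had a negative log2 ratio in all 7 gates and was called lower in 2, macrophages and mature neutrophils. In monocytes, immature neutrophils, progenitors and osteoclast-like cells Fosb was under 10 CPM in both libraries and so untested. In macrophages it was at 4.42 CPM (4.02 to 4.85) with THP and 14.6 CPM (13.6 to 15.5) with vehicle, a log2 ratio of -1.52 from 437 and 928 UMIs. In mature neutrophils the call rested on 1 UMI against 16, a 10.4-fold lower level with a counting interval from 1.61 to 435. In osteoclast-like cells the ratio rested on 12 and 14 UMIs and was not called. It changed sign, to 0.62, when cells with 3 markers of another type were left out.

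Fos was level between the libraries in macrophages (102 and 99.0 CPM), MHC class II high cells (95.5 and 98.3 CPM), osteoclast-like cells (64.3 and 66.6 CPM) and immature neutrophils (42.9 and 45.3 CPM). In monocytes it was at 103 against 123 CPM and in progenitors at 46.3 against 57.5 CPM. Mature neutrophils differed: Fos was at 79.6 CPM (60.6 to 103) with THP and 241 CPM (213 to 271) with vehicle, from 59 and 275 UMIs, and was called lower by 3.02-fold (2.28 to 4.08). Many genes were lower in that gate, 18.4% against 3.99% higher. Immature neutrophil markers there summed to 13858 CPM with THP and 9418 CPM with vehicle (4 of 6 higher with THP), and mature neutrophil markers to 18428 and 24390 CPM (2 of 6 higher). Their part in the Fos and Fosb values was not tested.

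The ratio of Atf3 varied among gates. In monocytes it was at 35.2 CPM (32.5 to 38.1) with THP and 12.3 CPM (10.9 to 13.7) with vehicle and was called higher, 2.87-fold (2.50 to 3.31). In macrophages it was at 67.7 and 43.9 CPM, and in MHC class II high cells at 69.3 and 44.9 CPM, both 1.54-fold. Osteoclast-like cells had the highest Atf3 level of all gates, 299 CPM (286 to 314) with THP and 294 CPM (280 to 310) with vehicle, and the libraries were level there. The library difference of Atf3 was therefore smallest where its level was highest.

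The remaining Atf3 calls rested on few molecules or cells. In immature neutrophils Atf3 was at 63.6 against 10.2 CPM, but 368 of the 470 UMIs of the THP library came from 1 of 1031 cells, and only 54 cells had a UMI at all. Without the cell with most Atf3 UMIs in each library the levels were 13.9 and 8.12 CPM, a log2 ratio of 0.71 that is not called. In mature neutrophils it was called lower from 4 against 19 UMIs, of which 9 vehicle UMIs lay in 1 cell. Without those cells the log2 ratio was -0.96, not called. In progenitors the levels were 13.7 and 6.73 CPM, and the log2 ratio of 0.92 became -0.94 when cells with 3 markers of another type were left out. The value of -0.94 comes from the 351 of 1440 THP and 309 of 1789 vehicle progenitors that remained.

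Macrophage markers moved with the library in some of these gates. They summed to 196 CPM with THP and 98.4 CPM with vehicle in immature neutrophils (5 of 6 higher with THP), and to 234 and 99.2 CPM in progenitors, against 2039 and 2221 CPM in the macrophage gate; in immature neutrophils none of the 6 was at 0. B-lineage markers in immature neutrophils summed to 875 and 31.5 CPM. With the macrophage level of each gene subtracted in proportion to these markers, Ier3 had log2 ratios of 1.30 in both neutrophil gates and 1.34 in progenitors, and Junb had 0.38, 1.13 and 0.71 in mature neutrophils, immature neutrophils and progenitors. Atf3 in progenitors then had 0.26. The part of B-lineage RNA in these results was not tested.

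Set against all genes of the same gate, calls among the 10 genes were as follows. The shares are of genes at 10 CPM or more in either library. All 10 genes reached that level in mature neutrophils, and 9 did in every other gate. In macrophages 1 was called higher (0.986% of genes) and 1 lower (2.5%). In monocytes 2 were higher (1.17%) and 0 lower (2.48%), and in mature neutrophils 1 was higher and 3 were lower, against the shares given with Fos. In immature neutrophils 3 were higher (1.93%), of which Atf3 rested on 1 cell, and 0 lower (4.81%). In progenitors 1 was higher (1.35%) and 0 lower (2.36%), in MHC class II high cells 1 was higher (1.13%) and 0 lower (3.71%), and in osteoclast-like cells 1 was higher (0.736%) and 0 lower (3.72%). Ier3 was the gene called in the last 3 gates. In 70 pairs of gene and gate, 10 were called higher and 4 lower.

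**Figure D3:**
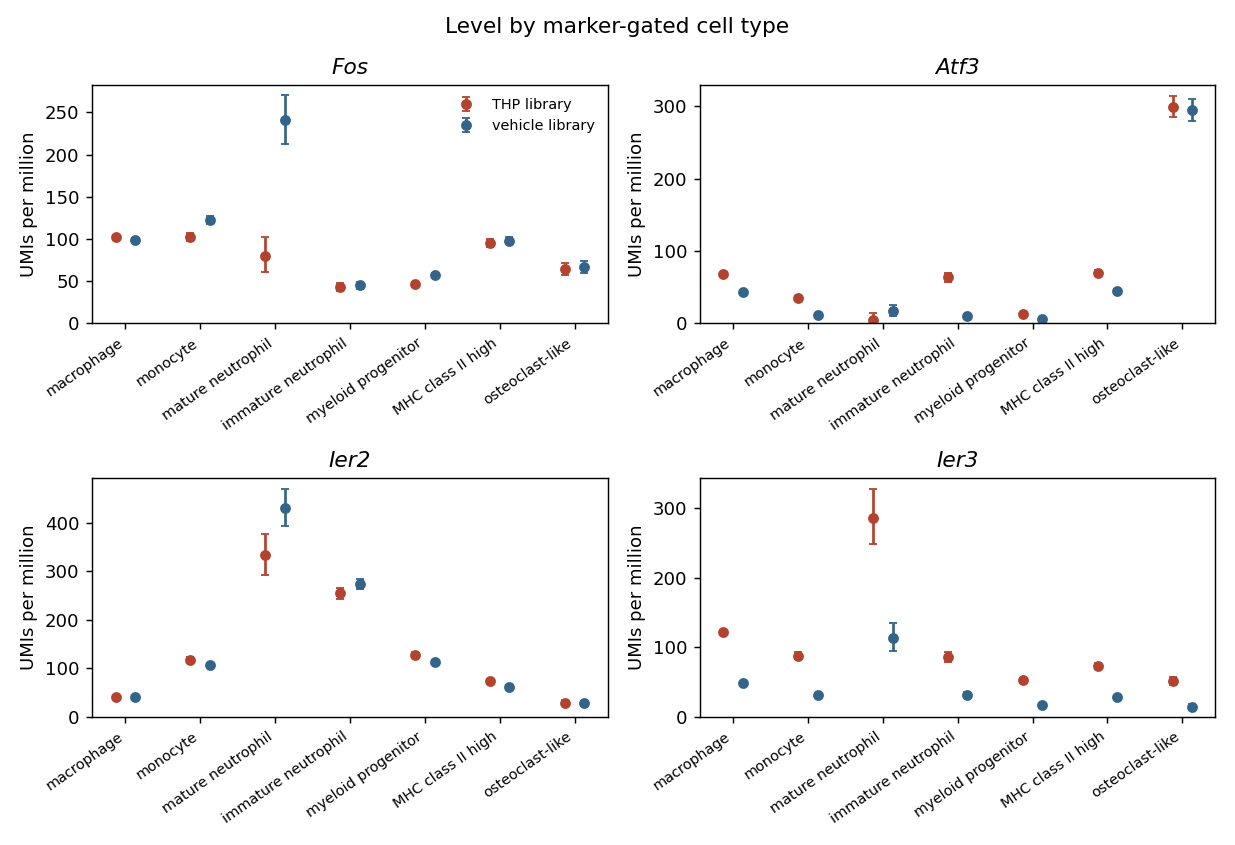
Level of Fos, Atf3, Ier2 and Ier3 in CPM (linear axes from 0) in each marker-gated cell type for the THP library (red) and the vehicle library (blue), with exact Poisson 95% intervals. Atf3 is highest in osteoclast-like cells in both libraries (299 and 294), Ier2 in mature neutrophils (333 and 430), and the red point of Ier3 lies above the blue point in all 7 types.

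Most of the genes also differed among cell types. A range over 7 gates takes the extremes, so it is not set against the ratio of the 2 libraries. The highest gate exceeded the lowest at least 4-fold in both libraries for 7 of the 10 genes (all but Fos, Jun and Junb), against 29% of 9192 genes. Atf3 spanned the widest range, 55.5-fold with THP and 43.7-fold with vehicle. The THP value is imprecise, because its lowest level, in mature neutrophils, was 5.40 CPM (1.47 to 13.8) from 4 UMIs. The order of Atf3 levels, averaged over both libraries, in which the place of immature neutrophils rests on 1 cell, ran from osteoclast-like cells through MHC class II high cells, macrophages, immature neutrophils, monocytes and mature neutrophils to progenitors. Only the first step of that order exceeded the spread of the 2 libraries.

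Egr1 and Ier2 were highest in neutrophils, whereas Atf3 was highest in osteoclast-like cells. Ier2 was at 333 and 430 CPM (THP and vehicle) in mature neutrophils, 254 and 274 CPM in immature neutrophils, 128 and 113 CPM in progenitors and 118 and 107 CPM in monocytes. It was lower in MHC class II high cells (73.9 and 61.5 CPM), macrophages (40.2 and 39.7 CPM) and osteoclast-like cells (29.2 and 27.5 CPM). Of the 6 steps between neighbours, 5 exceeded the spread of the libraries, the exception being progenitors and monocytes. Egr1 was at 83.6 and 139 CPM in mature neutrophils and 52.6 and 78.5 CPM in immature neutrophils, against 8.07 and 8.58 CPM in macrophages, and 4 of its 6 steps were separated. Fosl2 was also highest in mature neutrophils (49.9 and 78.8 CPM) and lowest in progenitors (9.86 and 10.2 CPM).

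Jund, like Atf3, was highest in osteoclast-like cells, at 412 CPM (396 to 429) with THP and 353 CPM (337 to 370) with vehicle, and lowest in progenitors (74.4 and 47.6 CPM). Jun varied less, from 177 and 215 CPM in mature neutrophils to 78.8 and 57.4 CPM in progenitors. Junb ran from 278 and 207 CPM to 80.6 and 41.9 CPM in the same gates. Fos was lowest in immature neutrophils (42.9 and 45.3 CPM), and its place at the top differed, monocytes with THP and mature neutrophils with vehicle. Fosb was highest in MHC class II high cells (11.6 and 17.9 CPM). For Junb, Ier3 and Fosb none of the 6 steps exceeded the spread of the 2 libraries, which includes the treatment.

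Shares of cells with a UMI were compared after thinning each cell to 3000 UMIs, which left out 1269 THP and 1268 vehicle cells. In the macrophage gate Ier3 was detected in 26.8% (25.3 to 28.2) of THP and 13.1% (11.8 to 14.6) of vehicle cells, Junb in 34.1% and 21.3%, and Atf3 in 14.8% and 9.26%. Fosb was detected in 1.48% and 4.19%, and Fos in 23.0% and 24.0%. Unthinned, the Ier3 shares were 75.0% and 51.7% and the Fos shares 69.3% and 71.2%. The order of the libraries was the same with and without thinning for Ier3 and Fos. Atf3 had a UMI in 50.0% (43.0 to 57.0) of THP and 45.1% (37.3 to 53.1) of vehicle osteoclast-like cells, against 2.03% and 0.788% of progenitors at the same depth. No cell type that should lack these genes was available as a measure of free RNA.

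**Figure D4:**
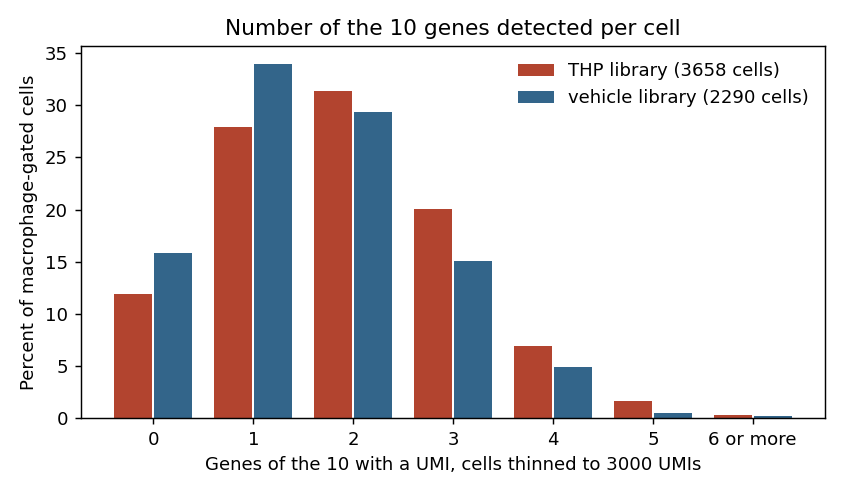
Percent of macrophage-gated cells (vertical axis) with a given number of the 10 genes detected (horizontal axis) after thinning to 3000 UMIs, for the THP library (red, 3658 cells) and the vehicle library (blue, 2290 cells). The THP cells lie farther to the right, with 11.9% against 15.8% at 0 genes.

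At that depth a macrophage-gated cell had 1.88 ± 1.19 of the 10 genes detected with THP and 1.62 ± 1.13 with vehicle (mean ± SD over cells, which are not replicates). None was detected in 11.9% and 15.8% of these cells, and 4 or more in 8.80% and 5.72%. Of the 10 genes, Ier3 (26.8% of THP and 13.1% of vehicle cells) and Junb (34.1% and 21.3%) differed most in the share detected. Fos, Fosb, Fosl2 and Jun were detected in a smaller share of THP than of vehicle cells. Among macrophage-gated cells of 1 library, the correlation of detection (phi) lay between -0.04 and 0.06 for all pairs with THP and between -0.06 and 0.07 with vehicle. Fos and Jun, the classic partners, had -0.01 and -0.02 there. Over all cells, which mix the cell types, Egr1 and Ier2 had the highest phi, 0.14 with THP and 0.17 with vehicle: Ier2 was detected in 48.6% of THP cells with Egr1 and 21.2% of those without it, and in 52.8% and 23.6% of vehicle cells. Atf3 and Ier2 had the lowest, -0.08 in both. In sparse counts weak correlations are no finding.

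Fos varied with the mitochondrial share of macrophage-gated cells. From the lowest over the middle to the highest tercile it was at 89.2, 99.5 and 118 CPM with THP and 87.3, 98.8 and 111 CPM with vehicle. Ier3 was at 125, 121 and 119 CPM with THP and 51.8, 47.1 and 44.7 CPM with vehicle, so the libraries differed in every tercile. Median mitochondrial shares of the gate were 3.12% and 3.63%. Fosb and Jund also rose over the mitochondrial terciles in both libraries. Fos varied with depth as well. From the lowest to the highest tercile of UMIs per cell it was at 119, 90.6 and 103 CPM with THP. With vehicle it was at 139, 92.0 and 89.7 CPM.

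Other genes of the pathway were taken from lists chosen with earlier results of these data known. Of the 10 other AP-1 and zipper factors tested, 0 were higher and 0 lower, with a median log2 ratio of -0.11 against -0.18 for all genes. Batf, a partner of Jun proteins, had the highest ratio at 0.47, and Atf2, a zipper factor activated by JNK and p38, was at 28.3 CPM with THP and 38.6 CPM with vehicle (-0.44). Of the 8 other immediate early genes tested, 0 were called in either direction. Rhob at -0.86 and Klf4 at -0.61 were the lowest, and Ier5 at 0.21 the highest. The heat shock and dissociation list, which bears on handling, had 0 of 8 called and a median of -0.07, with Hsph1 at -0.49 and Hspe1 at 0.28. The inducible genes Hspa1a (1.95 CPM with THP and 0.722 CPM with vehicle) and Hspa1b (3.22 and 0.804 CPM) of the list were below 10 CPM and so untested, and both were higher with THP; their values are given outside the naming rule, after they were seen. Their part in the results of the 10 genes was not tested.

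Upstream, 0 of 19 kinases and serum response factor partners were called, with a median log2 ratio of -0.30. Mkl1, a coactivator of serum response factor, was at 13.4 CPM with THP and 22.8 CPM with vehicle (-0.72), whereas Mapkapk2, a kinase downstream of p38, was at 223 and 137 CPM (0.69). Of 3 dual-specificity phosphatases tested, 0 were higher (0.911% of all genes) and 1 was lower (2.97%). Dusp6, which removes phosphate from ERK, was at 44.7 CPM with THP and 91.1 CPM with vehicle (-1.01), and Dusp1, which acts on p38 and JNK, was at 57.2 and 44.9 CPM (0.34). Both the Dusp6 call and that of Plau, given next, were lost with TMM factors and with length correction.

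Of 11 macrophage genes known to use AP-1 sites, 3 were higher (0.911% of all genes) and 1 was lower (2.97%), with a median log2 ratio of 0.46. The cytokine genes Il1b (67.3 against 9.58 CPM, 2.69) and Tnf (117 against 18.9 CPM, 2.56) and the membrane protease gene Mmp14 (23.1 against 4.51 CPM, 2.13) were higher with THP. Plau, which encodes urokinase, was lower (34.3 against 70.2 CPM, -1.01). These genes also use other factors, so the list does not measure AP-1 alone.

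For the members with the widest range over gates, the genes most like them were sought by the correlation of log2(CPM + 1) over the 14 sums of gate and library, among 9192 genes. These sums share library, depth and culture, so the values are descriptive. Igf2bp2 (Pearson r = 0.94), Slamf8 (0.93) and Ptchd1 (0.92) were most like Atf3. Ear2 (0.99), Ear1 and Bmx (both 0.98) were most like Egr1, and Pi16, Myl12b and Glipr2 (all 0.98) most like Ier2. Among the 10 genes, Egr1 and Ier2 had r = 0.93, Egr1 and Fosl2 0.87, and Atf3 and Jund 0.80. Atf3 had -0.74 with Ier2 and -0.58 with Egr1. All values of Atf3 include its THP sum in immature neutrophils, where 368 of 470 UMIs came from 1 cell. They also include its THP sum in mature neutrophils, from 4 UMIs.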

How the data were processed

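Droplet libraries of 1 THP-treated and 1 vehicle-treated culture were analysed. The authors deposited UMI counts for each gene and barcode, not normalized, in matrix format 2 written by software version 3.1.0, per the file headers. Cell Ranger, STAR, bcl2fastq and mm10 are named in the submitters' processing notes; the annotation release was not given in these sources. Coordinates are those of GENCODE M21 (GRCm38), and 99.9% of genes had a length there.

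Barcodes with at least 1000 UMIs, 500 genes and at most 10% mitochondrial UMIs were kept. A cell was assigned to the type, of 11, with most of its 6 markers at 2 or more UMIs, with at least 3 needed, and ties were left out. No doublet caller was run, so doublets remain. UMIs were summed per library or gate as CPM with exact Poisson intervals; shares have exact binomial intervals. Ratios used a pseudocount of 1 CPM. edgeR 4.0.16 in R 4.3.3 supplied TMM and RLE factors for the alternatives, and other steps used Python 3.11.15, numpy 2.4.6, scipy 1.17.1 and pandas 2.3.3. The ratio and call steps were tested on simulated data. Alternatives changed the scaling, pseudocount, level filter, fold limit, cell filter, cell weighting, gate rule and thinning depth, 1 at a time. All 10 genes were named, as were up to 4 genes per list, those farthest from 0 in log2 ratio among genes reaching 10 CPM, and for likeness the 3 closest genes to the members with the widest range. The members and lists were chosen with earlier results of these data known. 1 gene that the naming rule gives is not reported here.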

Additional observations from a re-analysis of the deposited data

Results flagged for a closer look

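Barcodes that the cell filter left out (1070 with THP, 606 with vehicle) entered only the alternative over all barcodes. In these barcodes alone, the levels of Ier3, Junb and Atf3 were higher with THP than with vehicle, with intervals that did not overlap. Ier3 was at 121 CPM (107 to 136) against 38.5 CPM (29.0 to 50.1), Junb at 208 CPM (190 to 227) against 101 CPM (84.9 to 119), and Atf3 at 40.4 CPM (32.6 to 49.4) against 20.98 CPM (14.2 to 29.95) in vehicle. Fosb and Ier2 lay lower with THP, also without overlap. Fosb was at 16.1 CPM (11.3 to 22.1) against 33.6 CPM (24.8 to 44.5), and Ier2 at 89.0 CPM (77.2 to 102) against 127 CPM (109 to 147). The intervals of Fos, Fosl2, Jun, Jund and Egr1 overlapped between the libraries. All these intervals cover counting error only, and the share of all genes without overlap in these barcodes was not computed. The lack of overlap therefore cannot be set against other genes, and no conclusion is drawn from it.

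For Atf3 the log2 ratio went in opposite directions past the 2-fold limit between gates: 1.45 in monocytes and 2.52 in immature neutrophils, where 1 cell held most UMIs, against -1.46 in mature neutrophils, from 4 and 19 UMIs. The difference between gates was not tested.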

How the results depend on the processing

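No paired analysis was possible because each group had 1 library and the labels gave no shared replicate number, and for the same reason no library could be left out. With 1 of the 10 genes called higher and 1 lower, TMM and RLE factors each gave 2 higher and 0 lower. Length correction and a pseudocount of 10 CPM each gave 0 lower, and a limit of 1.5-fold gave 3 higher. A filter of 50 CPM also gave 0 lower, but Fosb, at 5.47 CPM with THP and 13.6 CPM with vehicle, could not pass it. Shares over all genes are not given for RLE factors, the pseudocount of 10 CPM and the filter of 50 CPM. For the dual-specificity phosphatases and for the AP-1 target genes, the count of 1 lower was 0 with TMM factors and with length correction. Ratios over all cells ranged, over the 10 alternatives that could move them, from 1.30 to 1.78 for Ier3, 0.63 to 1.11 for Junb and -1.30 to -0.61 for Fosb. With 1 UMI per marker, the Atf3 log2 ratio was 0.77 in mature neutrophils and -0.017 in immature neutrophils, opposite in sign to the called values; the cause was not tested. Of 70 pairs of gene and gate, 15 changed sign under at least 1 of 7 alternatives, none of them a pair of Ier3 or Junb. Among the alternatives, leaving out the cell with most UMIs of a gene, leaving out cells with 3 markers of another type and subtracting macrophage RNA were chosen after seeing the data. Depth limits Fosb and Atf3 in mature neutrophils, with 1 to 19 UMIs per library.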
